A study of Sus scrofa with 4 samples.

Results

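SAA3 (serum amyloid A3) is an acute phase gene, and its RNA was measured in spleens of miniature pigs. On the porcine microarray used here, 5 probes carried the RefSeq transcript accession of SAA3, and all 5 were taken as its members. SAA3 was 1 of 3020 genes that could be named on the array. It was chosen for its difference between the IL2RG KO array and the wild-type (WT) arrays of this series, so its levels, differences and ranks are descriptions and carry no test.

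Serum amyloid A proteins are small apolipoproteins that bind high-density lipoprotein and appear in blood during the acute phase, the early systemic response to infection or injury. Hepatocytes make the circulating forms, whereas SAA3 in several mammals is made largely outside the liver, by macrophages, adipocytes and epithelia. That pattern need not hold in the pig, and which cells made SAA3 here was not tested. The family is induced by IL-1, IL-6, TNF and bacterial lipopolysaccharide through NF-κB, C/EBPβ and STAT3. Secreted serum amyloid A can act on leukocytes through receptors such as the Toll-like receptor TLR2.

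All arrays held spleen RNA of Minnesota miniature swine, a small pig breed used in biomedical research. Per the labels, 3 arrays came from wild-type pigs (WT 1, WT 2 and WT 3) and 1 array came from a pig of genotype IL2RG +/-, called KO here after the study's name for its animals. IL2RG encodes the common gamma chain, a receptor subunit that interleukin 2 and its relatives need. The study cut IL2RG with TALENs (designed nucleases) in cultured cells and made its KO pigs from those cells by somatic cell nuclear transfer, so they were cloned animals with 1 disrupted copy. The labels give no age and do not say that the 3 WT arrays came from separate animals, so p-values measure the spread between these arrays only. The KO array had no replicate, and no value for KO carries an error over animals.

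Each level is the log2 of the deposited processed signal of a probe minus the log2 of the 75th percentile of its array, so that 0 is that percentile. The 4 arrays had 75th percentiles of 640 to 820 units of signal and 66.1% to 72.7% of spots well above background, and no spot was saturated. WT 1 and KO shared 1 slide and 1 scan date, and WT 2 and WT 3 shared the other. The targeted gene IL2RG had 2 probes, whose levels were -0.64, -1.49 and -1.48 on WT 1 to WT 3 against -1.98 on KO, and -1.18, -2.11 and -2.18 against -3.95. Both probes were lowest on KO, but neither difference passed in the limma fit over all probes (adjusted p = 0.578 and 0.402). Where those probes lie relative to the deleted part of the gene is not known here.

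Some arrays stood apart in genes of other cell types. Of 10 hepatocyte markers, 9 were highest on WT 2, with a median level of 2.21 there against -3.05 on WT 1, -3.40 on WT 3 and -1.43 on KO. Of 6 neutrophil markers, 5 were highest on WT 3, with a median level of 3.91 there against -1.24, 1.41 and 1.15 on WT 1, WT 2 and KO. Of 4 measured genes of spleen red pulp and stroma, 3 were higher and 1 lower on KO than the WT mean. HMOX1, the heme oxygenase of red pulp macrophages, lay between 7.47 and 8.39 on all arrays. CCL21, the lower gene, named outside the naming rule, had 1.72, 1.08 and 1.36 on the WT arrays and -0.80 on KO. The 6 T cell markers, which are not particular to spleen, had medians of 2.02, 1.02, -0.26 and 2.10 on WT 1, WT 2, WT 3 and KO. The B cell markers MS4A1 (CD20) and CD79A lay between -0.13 and 1.38 on the WT arrays and at -4.00 and -3.90 on KO (limma adjusted p = 0.284 and 0.303).

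SAA3 was dim in the WT spleens and bright in the KO spleen. The probe with the highest mean level, A_72_P441669 (probe 1), had processed signals of 88.7, 54.4 and 44.5 on WT 1, WT 2 and WT 3 and of 40429.5 on KO. On the log2 scale its levels were -2.85, -3.91 and -4.20 on the WT arrays and 5.97 on KO. The KO array was thus far above all WT arrays, and WT 1 was the highest of the WT arrays. The difference between KO and the WT mean was 9.62 for probe 1, against an SD of 0.71 over the WT arrays (n = 3), which is a 788-fold difference. In bulk tissue, more cells that express SAA3 and more SAA3 RNA per cell cannot be told apart.

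The other probes showed the same division. Probe 2 (A_72_P165616) had signals of 92.7, 47.1 and 33.4 on the WT arrays and 40741 on KO, and probe 3 (A_72_P759880) had 40.3, 44.5 and 34.2 against 23645. Probe 4 (A_72_P766152) had signals of 34.7, 54.3 and 41.6 on the WT arrays and 15001 on KO. Probe 5 (A_72_P760975), the dimmest, had 33.3, 35.9 and 23.8 against 12653. For every probe the KO signal lay above all WT signals. In log2 level WT 1 was the highest WT array for probes 1, 2, 3 and 5 and WT 2 for probe 4, and WT 3 was the lowest for all 5 probes.

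**Figure D1:**
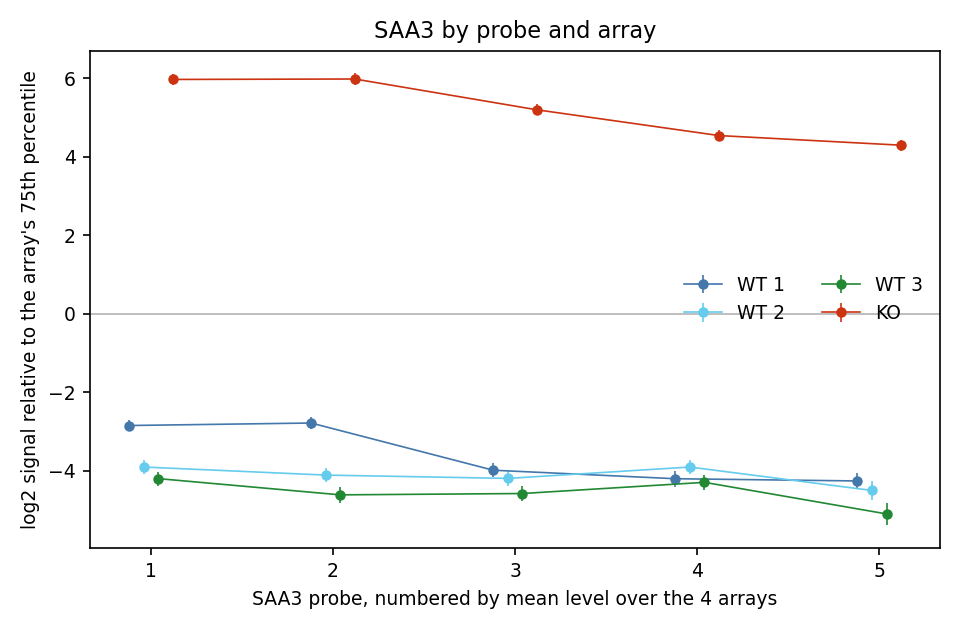
Levels of the 5 SAA3 probes (x axis, numbered by mean level) as log2 signal scaled to the 75th percentile (y axis), 1 line for each array; bars are the error of the spot signal that the extraction software gives. The KO line runs from 5.97 to 4.29, and all WT points lie between -5.10 and -2.79.

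Differences between KO and the WT mean were 9.82 for probe 2 (WT SD 0.95), 9.45 for probe 3 (WT SD 0.30), 8.68 for probe 4 (WT SD 0.20) and 8.92 for probe 5 (WT SD 0.43). On a linear scale the 5 probes gave folds of 409 to 904. Over the 5 probes the difference had a mean of 9.30, an SD of 0.48 and a range of 1.14. These probes target the same transcript and share their arrays, so this SD describes the probes and is no replicate error.

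Among the 33464 probes tested, the 5 SAA3 probes had the 5 largest positive differences between KO and the WT mean. The lowest of them, 8.68, was followed by a probe without a gene name (8.52) and by the next named gene, CXCL8, which encodes the neutrophil chemokine interleukin 8 (8.44). The unnamed probe had a WT mean of -7.53, below the lowest level well above background on any WT array, and CXCL8 was well above background on 2 of 3 WT arrays, so these sizes and the order next to them are not firmly measured. The median difference over all probes tested was -0.11. Without WT 1 the SAA3 probes ranked from 1 to 7, and against WT 1 alone, on the slide of KO, from 1 to 6. They ranked from 1 to 5 under each other scaling, normexp background correction, the deposited table, and without WT 2 or WT 3.

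The WT signals of SAA3 were low but measured. All 5 probes were flagged well above background on all 4 arrays, and none was saturated. The WT signals were between 2.67 and 8.61 times the highest of the 153 negative control spots of the same array. The extraction software gave the SAA3 spots an error of 10.5% to 20% of the signal on the WT arrays and of 10% on KO. The fold differences therefore rest on measured signals on both sides, with a larger relative error in WT.

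Rank within the array gives a view that needs no scaling between arrays. Of 43575 probes ranked from the brightest, the SAA3 probes stood between 20474 and 25379 on WT 1, between 24982 and 27306 on WT 2 and between 26274 and 29875 on WT 3. On KO they stood between 964 and 2229, so that 94.9% to 97.8% of probes were dimmer than an SAA3 probe there. On WT arrays 31.4% to 53.0% of probes were dimmer. Counted by gene, with the brightest probe standing for each gene, SAA3 was number 2119, 2378 and 2388 of 3020 named genes on WT 1, WT 2 and WT 3, and number 169 on KO. A rank by brightness also reflects how well each probe binds its target, so a rank describes the signal and not the number of transcripts.

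**Figure D2:**
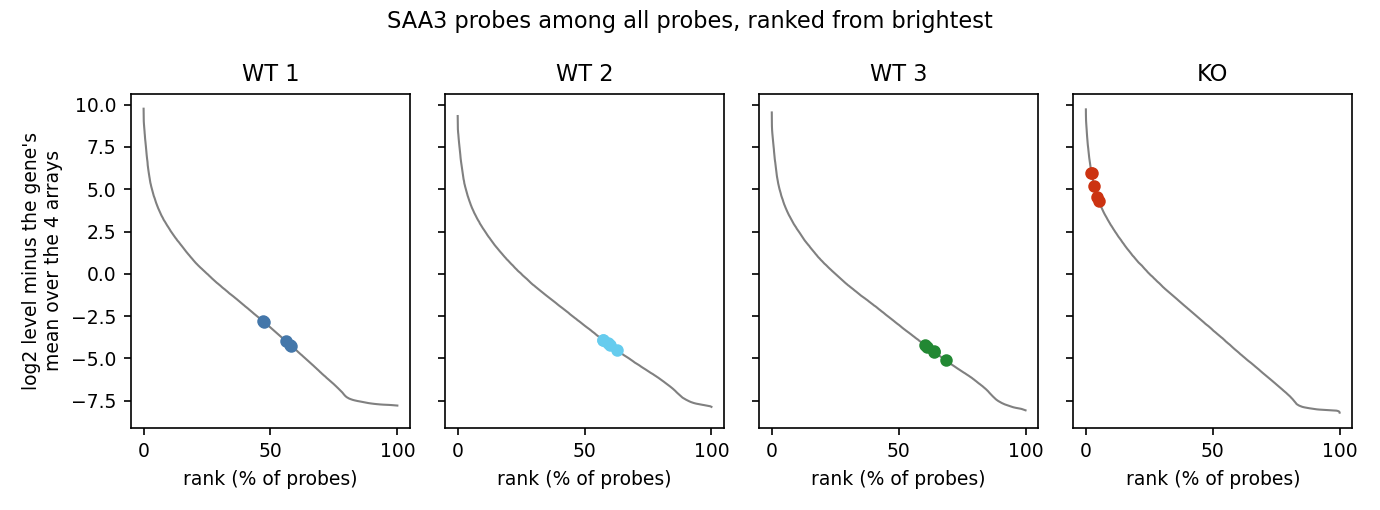
All probes of each array ranked from the brightest (x axis, percent of probes) against log2 signal scaled to the 75th percentile (y axis), with the 5 SAA3 probes as points. The plotted levels are not centred on the mean of each gene, although the printed y axis label says so. The points lie in the middle to lower part of the curve on WT 1, WT 2 and WT 3 and among the brightest probes on KO, where the best rank was 964 of 43575.

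The 5 probes agreed more closely between arrays of 1 slide than between slides. From WT 1 to KO, on the same slide, the difference was 8.82, 8.77, 9.18, 8.74 and 8.56 for probes 1 to 5, a range of 0.63. From WT 2 to KO it ran from 8.45 to 10.09, and from WT 3 to KO from 8.84 to 10.60, ranges of 1.65 and 1.76. Over 67 other named genes with 5 tested probes, the median range was 0.30 from WT 1 to KO, 0.57 from WT 2 to KO and 0.56 from WT 3 to KO. The wider spread between slides was thus not particular to SAA3, but 12, 4 and 3 of these 67 genes had a wider range than SAA3 in these pairs.

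The WT arrays differed in SAA3 by probe. From WT 2 to WT 3, on 1 slide, all 5 probes were lower by 0.30 to 0.60 on the log2 scale, and none of these differences exceeded 2 combined spot errors. From WT 1 to WT 2 the difference ran from -1.33 (probe 2) to 0.30 (probe 4), with 2 of 5 probes beyond 2 spot errors. From WT 1 to WT 3 it ran from -1.83 (probe 2) to -0.09 (probe 4), with 4 of 5 probes beyond. Probes 1 and 2 carried the higher SAA3 level of WT 1, and probe 4 showed little of it.

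**Figure D3:**
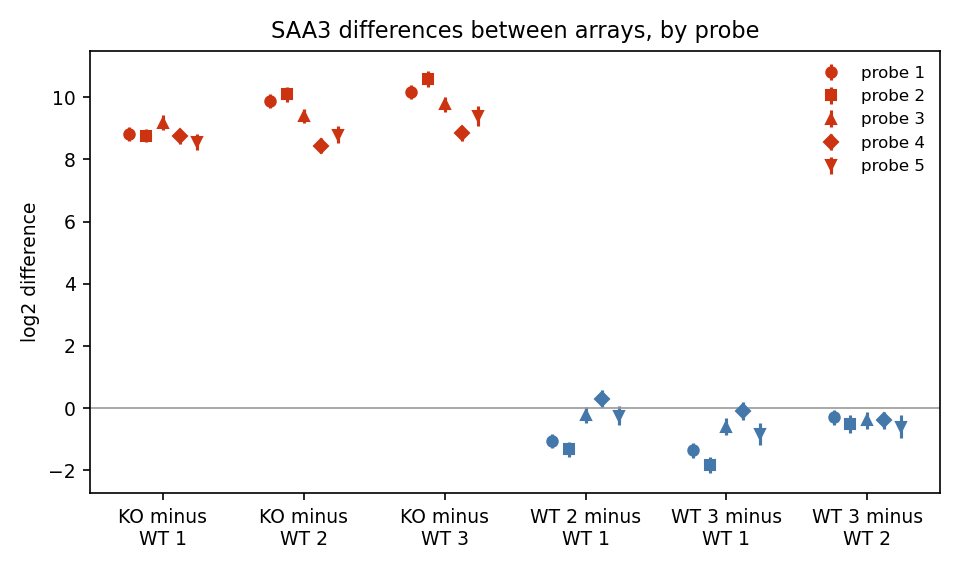
Log2 differences of the 5 SAA3 probes (symbols) for each pair of arrays (x axis); bars are the combined spot error of both arrays. KO differed from every WT array by 8.45 to 10.60, and WT arrays differed from each other by -1.83 to 0.30.

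The order of brightness of the probes was the same on WT 1 and KO. On KO the order was probe 2, 1, 3, 4 and 5, with the brightest 3.22 times the dimmest. WT 1 had the identical order (10 of 10 pairs of probes) and a ratio of 2.78, whereas WT 2 and WT 3 kept 7 and 6 of 10 pairs, with ratios of 1.51 and 1.87. Some WT orderings lay within the spot error. Probes 1 and 4 had signals of 54.36 and 54.33 on WT 2 (errors 6.62 and 7.09). Probes 4 and 5 had 34.7 and 33.3 on WT 1 (errors 4.85 and 4.77). A cause for the shared order of WT 1 and KO was not tested, and slide and scan date cannot be told apart here.

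The spread of SAA3 over the WT arrays was not extreme for this array. The SDs of probes 1 to 5 exceeded those of 80.8%, 88.0%, 45.6%, 28.8% and 62.2% of all probes tested, and those of 82.4%, 89.7%, 36.3%, 22.2% and 50.8% of probes of similar WT level. Only probes 1 and 2 were thus in the upper part of the distribution.

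The other serum amyloid A genes could not be read beside SAA3. In the reference gene order for the pig (assembly Sscrofa11.1), SAA3 stands in a cluster with SAA2, SAA4, the pseudogene SAA1P, LOC102165880 and SAAL1, and none of these had a named probe. The files hold no probe sequences, so signal that a close family member adds to an SAA3 probe cannot be told apart from SAA3. The only nearby gene with a named probe was HPS5, a gene of lysosome-related organelle biogenesis, at 0.94, 0.78 and 0.63 on the WT arrays and 1.24 on KO, a difference of 0.45 (limma adjusted p = 0.588).

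The genes around SAA3 were taken from lists of its inducers, their receptors, transcription factors, co-regulated acute phase proteins, receptors and proteases. Of 86 listed genes other than SAA3, 55 had a named probe and 54 were well above background on at least 1 array. None passed in limma (adjusted p of 0.284 to 0.983), where 0% of the 33464 probes passed, although 26 of the 54 and 3775 of all probes had an unadjusted p under 0.05. A count that uses no test gave 27 of 54 list genes (50%) at least 2-fold above the WT mean and above all WT arrays, against 13.5% of 2737 named genes. In the other direction it gave 4 of 54 (7.41%), against 9.13%. The lists were chosen with earlier results of these data known, so these shares describe the lists and are no independent test of them. The median difference over the 54 genes was 0.95, and 0.08 over all named genes. Against WT 1 alone, on the slide that holds KO, these medians were 1.14 and 0.12. The median of the acute phase proteins of the liver was 1.105 in that comparison, that of the leukocyte genes 2.41, the cytokines 1.40, the receptors 1.14, the transcription factors 1.21, the partners 0.65 and the proteases 0.50.

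The inducing cytokines were mostly higher on KO, with 6 of 7 at least 2-fold above the WT mean and higher than on any WT array, and a list median of 1.82. IL1B, a main inducer of serum amyloid A, had levels of -2.52, -1.64 and -0.97 on the WT arrays and 2.10 on KO, a difference of 3.81 (limma adjusted p = 0.359). IFNG, the macrophage-activating cytokine of T and NK cells, had -1.80, -3.35 and -4.63 against 0.38, a difference of 3.65 (limma adjusted p = 0.432). In both genes the KO array stood clear of the WT arrays, while the WT arrays differed from each other by more than 1 log2 unit. TNF (1.82), IL18 (1.95), IL6 (1.26) and IL1A (1.04) had smaller differences. IL6, the cytokine that drives the hepatic acute phase, lay at 0.38, 0.20 and -0.28 on the WT arrays and 1.36 on KO. LIF, an IL-6 family cytokine, differed by -0.32, within the WT range, and IL17A had no array well above background.

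Of 11 receptors and adaptors for the inducers and for lipopolysaccharide, 6 met this 2-fold condition (54.5%, against 13.5% of named genes). The list median was 1.26. All 11 had a KO level above the WT mean, by 0.06 in the lowest case (IL6R, within the WT range). That count has no share over all named genes beside it. CD14, the lipopolysaccharide co-receptor of monocytes and macrophages, had levels of 0.52, 0.22 and 0.25 on the WT arrays and 3.41 on KO, a difference of 3.08 (limma adjusted p = 0.284). The WT SD of CD14 was 0.17, so the KO array was far outside the WT spread. Differences of the others were 1.89 for MYD88, the adaptor of Toll-like and IL-1 receptors, 1.83 for IFNGR2, 1.59 for TNFRSF1B, 1.56 for TLR4 and 1.26 for its partner LY96.

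Of 6 transcription factors and feedback genes, 5 met the 2-fold condition (83.3%, against 13.5% of named genes), with a list median of 1.46. All 6 were higher on KO than on any WT array, a count without a share over all named genes beside it. CEBPB, which encodes the factor C/EBPβ, had levels of -2.15, -3.92 and -3.20 on the WT arrays and 0.33 on KO, a difference of 3.42 (limma adjusted p = 0.393). SOCS3, a feedback inhibitor of IL-6 signalling, had -3.57, -3.57 and -3.63 against -2.27, a difference of 1.32 (limma adjusted p = 0.377). The KO array was above all WT arrays for both genes, with a narrow WT spread for SOCS3. STAT3 (1.53), NFKB1 (1.49), NFKBIA, the inhibitor of NF-κB (1.42), and RELA (0.53) were also higher on KO than on any WT array.

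**Figure D4:**
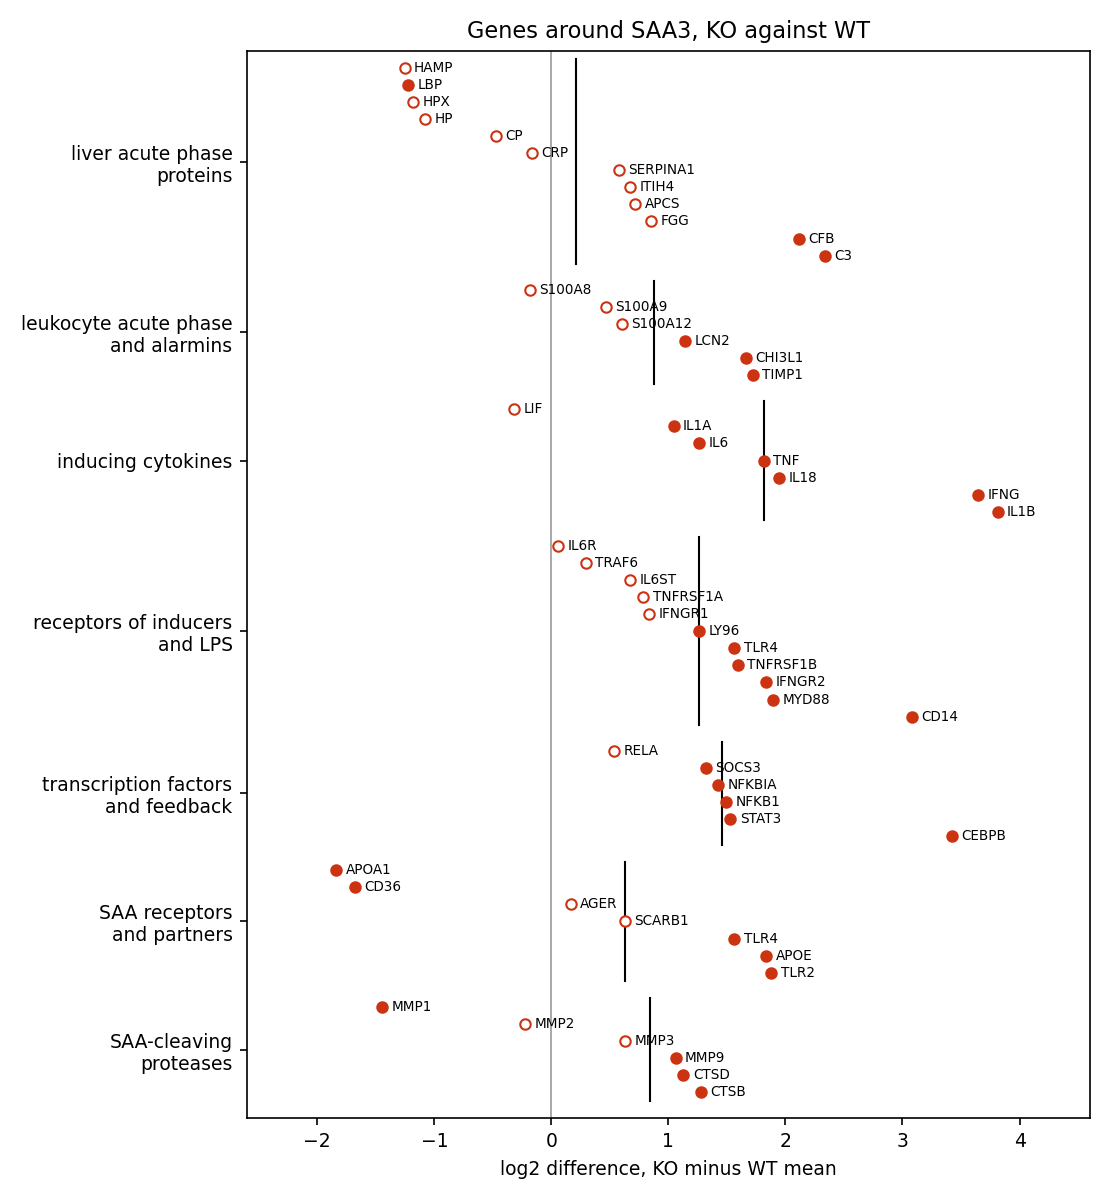
Log2 difference between KO and the WT mean (x axis) for each measured gene of the lists around SAA3 (rows, grouped by role); filled points are genes at least 2-fold from the WT mean and outside the WT range, and black lines are list medians. Medians ran from 0.21 (acute phase proteins of the liver) to 1.82 (inducing cytokines), and SAA3 itself, at 9.62, is beyond the axis.

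The acute phase proteins of the liver were divided, with 6 of 12 measured genes higher and 6 lower on KO than the WT mean. By the same condition 2 were above and 1 below (16.7% and 8.33%), near the shares of all named genes (13.5% and 9.13%). The list median of 0.21 turned negative under 7 other settings. C3, the central complement protein, had levels of 3.22, 2.87 and 3.10 on the WT arrays and 5.40 on KO, a difference of 2.34 (limma adjusted p = 0.303). CFB, complement factor B, had 0.66, 2.02 and 1.39 against 3.47, a difference of 2.11. C3 and CFB were thus the 2 members above the WT range by this amount. LBP, the lipopolysaccharide binding protein, was well above background on 2 of 3 WT arrays and not on KO. Its levels were -5.59, -3.96 and -4.47 on the WT arrays and -5.90 on KO, so its difference of -1.22 has no settled size. CRP and HP, classical pig acute phase proteins named here outside the naming rule, differed by -0.16 and -1.08 and lay within the WT range. HP ran from -1.22 (WT 1) to 4.04 (WT 2) and stood at 0.91 on KO, and its highest array was thus the one with the highest hepatocyte markers.

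Among 6 acute phase and alarmin genes of leukocytes, 3 were at least 2-fold above the WT mean and outside the WT range, and the list median was 0.87. TIMP1, an inhibitor of matrix metalloproteinases, had levels of 4.14, 3.89 and 4.13 on the WT arrays and 5.77 on KO, a difference of 1.72 (limma adjusted p = 0.330). CHI3L1, a chitinase-like protein of macrophages, differed by 1.66, and LCN2, the neutrophil and epithelial iron chelator lipocalin 2, by 1.14. LCN2 was at -1.32 on KO and -1.51 on WT 3, so that these arrays lay close together. S100A8, S100A9 and S100A12, alarmins of neutrophils and monocytes, differed by -0.18, 0.46 and 0.61 and lay within the WT range, with their highest levels on WT 3. Without WT 1 the list median was -0.011.

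Receptors and partners of serum amyloid A went in both directions, with 3 of 7 genes at least 2-fold above and 2 at least 2-fold below the WT mean and outside the WT range, and a list median of 0.63. TLR2 had levels of 2.26, 1.65 and 1.81 on the WT arrays and 3.78 on KO, a difference of 1.88 (limma adjusted p = 0.371). APOE, an apolipoprotein made by macrophages, had 0.26, 0.13 and 0.42 against 2.11, a difference of 1.84 (limma adjusted p = 0.315), and TLR4 belonged to this list too. For these genes the KO array lay above all WT arrays. The high-density lipoprotein genes were not alike: APOA1, its main apolipoprotein, had 2.80, 3.44 and 3.62 against 1.45, a difference of -1.84 (limma adjusted p = 0.400), while SCARB1, its receptor, differed by 0.63. The scavenger receptor CD36 had 3.59, 4.30 and 4.96 against 2.60, a difference of -1.68, and AGER, the receptor of advanced glycation end products, differed by 0.17, within the WT range.

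Of 6 proteases that can cleave serum amyloid A, 3 were at least 2-fold above and 1 below the WT mean and outside the WT range, with a list median of 0.85. The lysosomal cathepsins CTSB and CTSD differed by 1.28 and 1.13, and the metalloproteinases MMP9 and MMP3 by 1.06 and 0.63. MMP1, a collagenase, was well above background on 1 WT array (WT 3) and not on KO, so its difference of -1.44 has no settled size.

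SAA3 was set beside markers of the cell types known to make it or to be present as blood or neighbouring tissue. Of 10 macrophage markers, 4 were at least 2-fold above the WT mean and above all WT arrays (40%, against 13.5% of named genes). KO was the highest array for 8 of the 10, a count without a share over all named genes beside it. Medians were 1.99, 5.52, 5.32 and 5.86 on WT 1, WT 2, WT 3 and KO, whereas list means were 2.81, 2.90, 2.79 and 4.75. VSIG4, named outside the naming rule, stood at -0.88 on WT 1 and at 7.21, 6.37 and 4.64 on the others. The VSIG4 probes differed by 0.41 to 5.36 between KO and the WT mean, so the medians are no firm measure. The brightest markers, C1QB, C1QA and C1QC, which encode the complement C1q chains, differed by only 0.71, 0.99 and 1.00. CD163, the hemoglobin scavenger receptor of red pulp macrophages, had 3.46, 4.82 and 4.66 on the WT arrays and 7.48 on KO, a difference of 3.17. FCGR1A (3.89), MRC1 (3.25), CD163 and CD14 (3.08) had the larger differences within this list. The part of macrophage number or state in the SAA3 level was not tested.

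Hepatocyte and neutrophil markers were mostly highest on a WT array. Of 10 hepatocyte markers, 4 were above and 6 below the WT mean on KO, and 6 were higher on KO than on both WT 1 and WT 3. TF, APOA2 and APOA1, the brightest, differed by -1.52, -0.28 and -1.84 between KO and the WT mean. The 4 TF probes ran from -1.52 to 1.12, so the direction of TF is not settled. ALB, the albumin gene, named outside the rule because it defines the cell type, had levels of -6.42, 2.60 and -5.05 on the WT arrays and -1.64 on KO. WT 2 was thus the array with the highest hepatocyte signal. SAA3 probes lay between -4.51 and -3.91 on WT 2, between -4.26 and -2.79 on WT 1 and between -5.10 and -4.20 on WT 3. KO also had more ALB signal than WT 1 and WT 3, and the part of this in its SAA3 level was not tested. S100A12, S100A8 and LTF (lactoferrin), the brightest neutrophil markers, were highest on WT 3, where all 5 SAA3 probes had their lowest level. The part of neutrophils in the SAA3 levels was not tested. Leaving out WT 2 gave an SAA3 difference of 9.50 and leaving out WT 3 one of 9.35 for probe 1, and the list genes above the WT range then numbered 29 and 27.

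**Figure D5:**
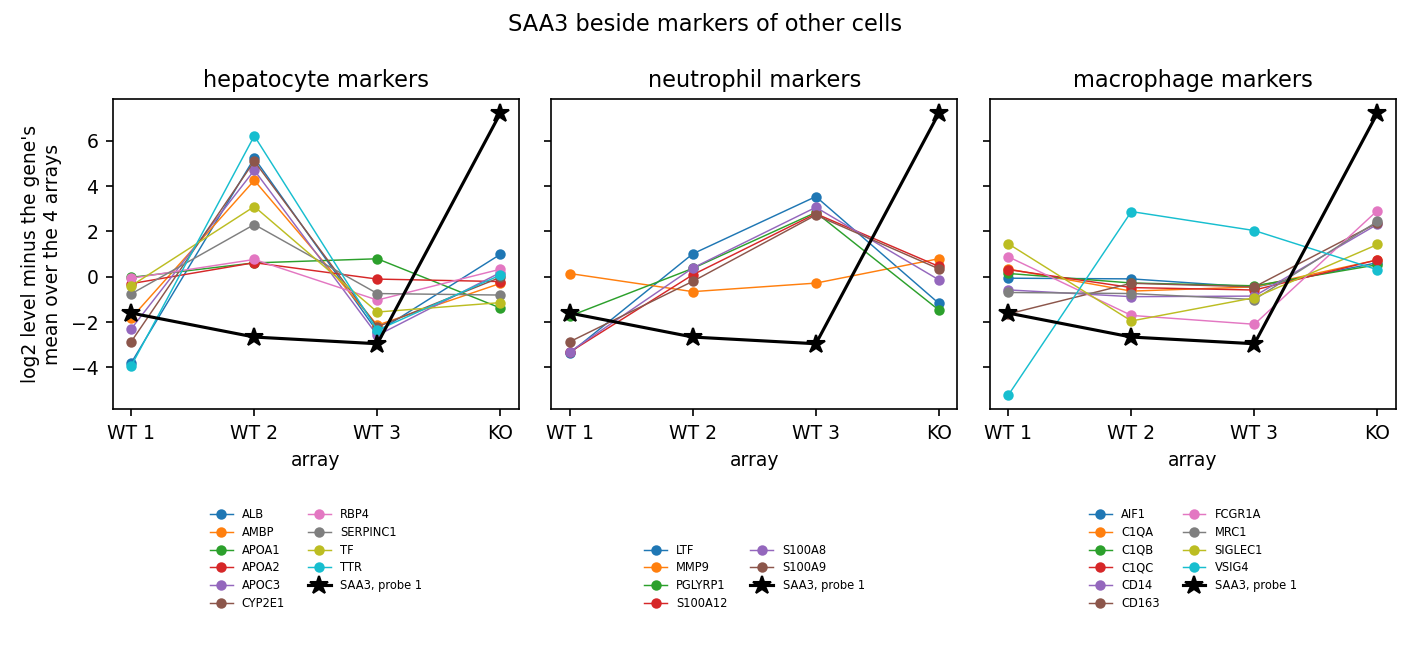
Log2 levels of hepatocyte, neutrophil and macrophage markers (coloured lines) and of SAA3 probe 1 (black stars) on the 4 arrays (x axis), each minus its own mean over the 4 arrays (y axis). Most hepatocyte markers peak on WT 2 and most neutrophil markers on WT 3, whereas SAA3 is highest on KO. Of 10 macrophage markers, 4 are at least 2-fold above the WT mean and above all WT arrays on KO (40%, against 13.5% of named genes).

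Markers of adipocytes, epithelia, fibroblasts and endothelium were of other shapes. Of 6 adipocyte markers PLIN1 had no array well above background, and the brightest, FABP4, LEP and LPL, differed by 1.43, -0.23 and -1.02. FABP4, a fatty acid carrier also found in macrophages and endothelium, was at -0.69 on both WT 3 and KO. Of the epithelial markers, KRT8, CDH1 and EPCAM differed by 0.65, -0.31 and -0.26, all within the WT range. The stromal genes COL1A2, DCN and LUM differed by -0.03, 1.31 and 0.45, and the endothelial genes PECAM1, CDH5 and VWF by -0.01, -0.97 and -2.76. The 9 LUM probes ran from -0.36 to 2.18, so the direction of LUM is not settled. All these differences were smaller than that of SAA3, which follows from its choice for its difference.

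The named genes most like SAA3 in their levels over the 4 arrays were mostly chemokines. Likeness was the root mean square difference from SAA3 probe 1 after each gene was centred on its own mean over the 4 arrays, so that a small value means a similar profile, and a large difference between KO and WT is fixed by this choice. Over 2737 genes the median distance was 4.18, and the other SAA3 probes lay at 0.19 to 0.67. CXCL8, the neutrophil chemokine, was nearest at 0.65, with levels of -5.13, -5.51 and -6.91 on the WT arrays and 2.59 on KO, where KO and 2 WT arrays were well above background. AMCF-II, a pig chemokine for neutrophils, followed at 1.52, with -7.49, -5.80 and -5.70 against 1.17, where KO and 1 WT array were well above background. Both had WT levels partly below background, so the sizes of their differences are not firmly measured.

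The next genes had larger distances and smaller differences. CXCL11 (1.88), CXCL9 (1.96) and CCL8 (2.09), chemokines that draw T cells or monocytes, had differences of 5.33, 5.44 and 4.95. CXCL9 had levels of 3.35, 1.70 and -0.05 on the WT arrays and 7.10 on KO, with the WT arrays in the same order as for SAA3 probe 1 (WT 1 highest, WT 3 lowest). PTGS2 (2.18), the inducible cyclooxygenase, had -2.09, -2.92 and -2.87 on the WT arrays and 1.97 on KO, and SLC1A3 (2.16), a glutamate transporter, differed by 4.71. MUL1 (2.08), a mitochondrial ubiquitin ligase, had the narrowest WT spread of these genes, with -2.34, -2.63 and -2.56 against 2.41. The same 8 genes were found with the mean absolute difference as the measure and with quantile normalisation.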

How the data were processed

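Spleen RNA was measured on 3 WT arrays and 1 KO array of a porcine design, 1 sample an array. The groups and WT numbers were taken from the sample titles. Per the labels, RNA was amplified and labelled with Cy3, and the file headers list 1 channel, whereas the study's methods describe a dye pair. Per the file headers, the authors used Feature Extraction 11.0.1.1, and the deposited spot intensities are its output after background subtraction, with an error and flags for each spot. The deposited series table holds log2 values of the authors for 27402 of the probes used here, whose scale is not stated; their columns share 1 distribution, and they were used only as an alternative. No genome build is named, so no coordinates are given.

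Control spots and 43 spots flagged as outliers on any array were left out, which left 43575 probes. The main value was log2 processed signal minus the 75th percentile of the array, averaged over spots of a probe. Probes well above background on at least 1 array (33464) were fitted with limma 3.58.1 (R 4.3.3; lmFit and eBayes, 2 residual and 1.931 prior degrees of freedom), with Benjamini-Hochberg adjustment and a threshold of 0.05 with a 2-fold difference. The step was tested on simulated data. The number of arrays limits the precision. An exact permutation test of 1 against 3 arrays cannot go below p = 0.25, so none was run.

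Names came from RefSeq accessions through the Sscrofa11.1 gene table, which named 6681 probes (15.3%) of 3020 genes; the probe with the highest mean level stood for a gene. Named in the text are SAA3, all measured inducing cytokines and SAA partners, up to 6 genes of each other list with the largest differences outside the WT range, the 8 genes most like SAA3 and up to 3 markers a list with the highest level; other names are marked or defined a cell type or list. SAA3 and all lists were chosen with earlier results of these data known. Alternatives changed the scaling, background correction (normexp with offset 50, on median signals), filter, probe choice, arrays, slide block and test, with the methods' t-test among them.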

Additional observations from a re-analysis of the deposited data

How the results depend on the processing

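No paired analysis was possible because the KO title carries no replicate number and the group holds 1 array. The difference of SAA3 probe 1 between KO and the WT mean (9.62) was 8.58 with normexp and 8.82 with the slide as a block, where WT 1 alone is compared with KO. It was 9.35 to 10.02 when each WT array was left out, and moved by less than the WT SD under the other settings. The rank of probe 1 was 19906 to 20686 on WT 1, 24416 to 24982 on WT 2, 25527 to 26274 on WT 3 and 883 to 968 on KO under the settings run.

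The count of list genes at least 2-fold above the WT mean and above the WT range (27) was 23 to 29 under all settings. The count below (4) was 2 with quantile normalisation, the median shift, normexp, the deposited table and the filter that keeps probes measured on all 4 arrays, 1 with the slide as a block, and 3 to 7 without each WT array, 7 being without WT 1. The median of the liver list (0.21) was -0.017 with no scaling, -0.36 with normexp, -0.35 with the deposited table, -0.32 with that filter, -0.053 with the mean over probes, and -0.66 to 0.90 without each WT array (-0.66 without WT 1 and -0.15 without WT 3). The leukocyte list (0.87) was -0.011 to 1.69 without each WT array, the lowest being without WT 1. The cause was not tested.

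No probe was called by limma, and 0 were called under the other scalings, filters and arrays left out. With normexp 4 probes were called and with an intensity trend in eBayes 6, and none was a list gene. Both counts include probes of SAA3. SAA3 was chosen for its difference on these arrays, so these calls carry no test of it. The methods' t-test called 0 after Bonferroni or Benjamini-Hochberg adjustment and 1333 probes unadjusted with a 2-fold difference. The limits of the data are 1 KO array without a replicate, 2 slides that divide the WT arrays, WT signals of SAA3 near the lower end of the measured range, and 5 probes for a gene whose close relatives have no named probe.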
